A study of Rattus norvegicus with 6 samples.

Results

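Hox genes encode homeodomain transcription factors that lie in 4 clusters, Hoxa to Hoxd, and are numbered by paralogue, so that genes of the same number in different clusters are the most alike. Along each cluster the low numbers are used towards the head and the high numbers towards the tail and the far end of the limb. Connective tissue cells of the adult keep much of the Hox code of the site they come from, also in culture, and Polycomb proteins hold the unused genes silent. The members described here were the rows of the deposited expression table whose gene name is Hox, a cluster letter and a number. They were 38 of 33300 rows, with 11 in Hoxa, 10 in Hoxb, 8 in Hoxc and 9 in Hoxd, and carried 35 distinct names, since Hoxa5 stood in 3 rows and Hoxa11 in 2.

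RNA was sequenced from cultured rat tendon stem/progenitor cells after 7 days, in 3 libraries from F12 medium alone (Control) and 3 (NAC) from that medium plus N-acetyl-L-cysteine at 500 uM, an antioxidant and source of cysteine. All 6 libraries are labelled as cells in tenogenic differentiation, with no genetic change named. The labels give neither the tendon, the limb nor the age of the animals, and nothing in them says that the 3 libraries of a group were separate cultures, so the p-values measure the spread between libraries, which may be technical. Values are FPKM, that is fragments per kilobase adjusted for sequencing depth, and a gene was called when its limma p, adjusted over all 12733 genes with a mean of at least 1 FPKM, was under 0.05.

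The libraries held 12487215 to 14941949 reads, and 1 read on a gene of 1 kb was worth 0.0681 to 0.0794 FPKM. The total by which the authors divided was 1.02 to 1.04 times the sum of reads in Control and 0.909 to 0.925 times that sum in NAC, which bears on every fold change below. Of the defining tendon markers Scx averaged 12.5 FPKM and Mkx 5.28 FPKM in Control, while Tnmd averaged 1.41 FPKM. Cdh5, Ptprc, Cd3e, Pax7 and Krt5, which define endothelial, blood, satellite and epithelial cells, were listed at 0 in all 6 libraries. Other markers of these lists were read. A mean of at least 1 FPKM was reached by 0 of 6 endothelial, 2 of 7 leukocyte, 1 of 7 skeletal muscle and 1 of 6 epithelial markers. Marker sums over all 6 libraries were 0.368 to 0.750 FPKM for endothelium (6 genes), 8.36 to 12.1 FPKM for leukocytes (7 genes), 2.37 to 3.65 FPKM for skeletal muscle (7 genes), 0.594 to 1.47 FPKM for epithelium (6 genes) and 11.6 to 15.4 FPKM for cartilage (6 genes). The 5 Schwann markers summed to 46.9 to 55.0 FPKM in Control and 47.7 to 53.2 FPKM in NAC, nearly all of it S100b, while Sox10 and Cdh19 were listed at 0. The 7 markers of pericytes and smooth muscle summed to 501 to 606 FPKM in Control and 415 to 481 FPKM in NAC, and their part in the Hox values was not tested. In such bulk RNA, fewer cells of a type and less RNA per cell cannot be told apart. Smarcb1, a chromatin remodelling subunit that every cell uses, was itself listed at 0 in 5 of 6 libraries, so a gene at 0 is given below only as listed at 0.

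The Hox genes read at 1 FPKM or more in these cells were chiefly those of Hoxc and Hoxd. At least 1 FPKM was reached in every Control library by 8 rows, namely Hoxa11, Hoxc4, Hoxc6, Hoxc10, Hoxc13, Hoxd4, Hoxd8 and Hoxd9. By cluster these were 1 of 11 rows in Hoxa, 0 of 10 in Hoxb, 4 of 8 in Hoxc and 3 of 9 in Hoxd. Rows inside the clusters that carry no Hox name are not counted here. The same 8 rows, and no other Hox row, reached 1 FPKM in every NAC library. More than 3 reads, taken as the floor of detection, were found in every Control library for 18 rows, while 14 rows stayed at or below 3 reads in all 6 libraries and 4 of those were listed at 0 throughout. Reads and floors cover counting error only.

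The Hoxd cluster held both a row near the top, Hoxd8, and a row listed at 0 in Control with at most 3 reads in NAC, Hoxd12. The promoters of these 2 genes are shown here. Promoters of Hox genes are often rich in CpG dinucleotides, which are shown in capitals in the 250 bases upstream of each start (RefSeq, build GRCr8, plus strand, Hoxd8 at chr3:80014973-80015222 and Hoxd12 at chr3:79984856-79985105).
Hoxd8: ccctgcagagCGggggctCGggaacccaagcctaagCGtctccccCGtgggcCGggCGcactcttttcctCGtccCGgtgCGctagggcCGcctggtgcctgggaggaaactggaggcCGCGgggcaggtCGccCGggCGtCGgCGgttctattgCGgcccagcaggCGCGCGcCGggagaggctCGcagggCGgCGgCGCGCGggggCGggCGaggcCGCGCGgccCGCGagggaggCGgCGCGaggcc
Hoxd12: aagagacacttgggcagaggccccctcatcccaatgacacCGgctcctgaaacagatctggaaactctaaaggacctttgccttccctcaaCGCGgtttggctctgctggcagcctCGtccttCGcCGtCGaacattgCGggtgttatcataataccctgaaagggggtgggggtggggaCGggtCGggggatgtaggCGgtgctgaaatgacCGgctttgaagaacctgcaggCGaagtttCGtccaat
The Hoxd8 window held 38 CpG and that of Hoxd12 held 14, against a median of 5 over 33469 rat promoters of the same length. Hoxd8 averaged 3.91 FPKM in Control and Hoxd12 was listed at 0 there. The CpG number did not order the cluster, since Hoxd13 with 30 CpG averaged 0.127 FPKM and Hoxd4 with 12 averaged 1.35 FPKM. The letters TGATTNAT, a site type bound by HOX and PBX proteins together, were searched on both strands and occurred in 2.82% of all promoters of that length. Of the 35 Hox names 18 were matched to exactly 1 promoter of the table used here. Among those 18 the letters occurred in Hoxd11 and Hoxa2 only, and a match of letters is a description, not a binding site.

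**Figure D1:**
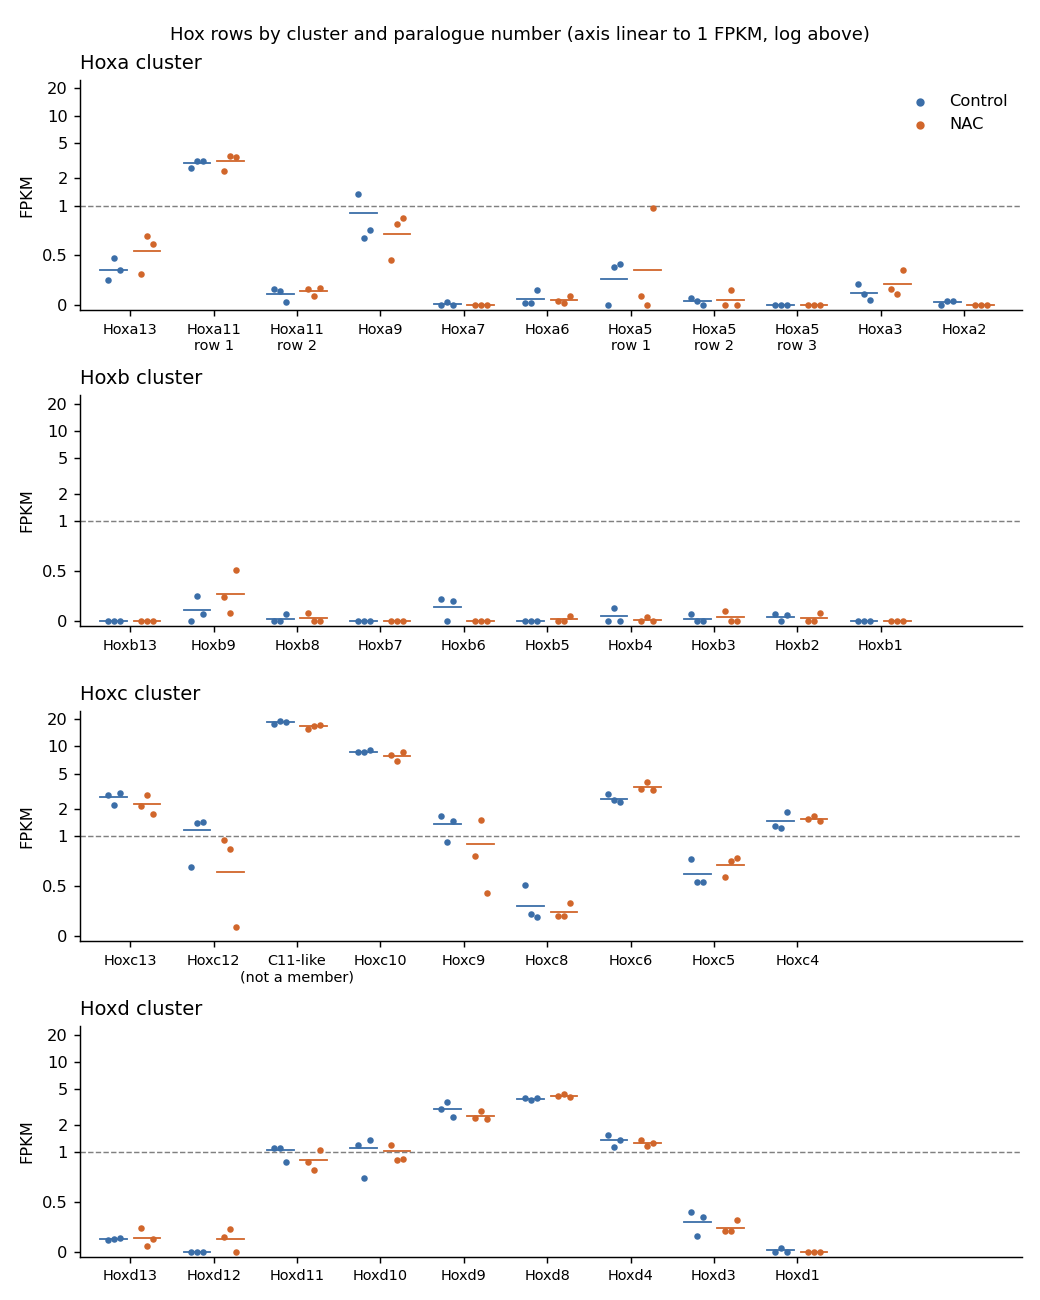
FPKM of each Hox row in the 3 Control (blue) and 3 NAC (orange) libraries, by cluster from high to low paralogue number, with bars at the group means, a dashed line at 1 FPKM and an axis that is linear up to 1 FPKM and logarithmic above. Points above the line are found mainly in the Hoxc and Hoxd panels, and no Hoxb point exceeds 0.508 FPKM; the C11-like row is not named as a Hox gene in the table.

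Hoxc10, a gene of the hindlimb and lumbar region in the embryo, was the most abundant Hox gene by name (chr7:144577465-144582622, plus strand, in the deposited coordinates, for which no source used here names a rat build). It stood at 8.63, 8.59 and 9.11 FPKM in Control and at 7.97, 6.82 and 8.77 FPKM in NAC, from 167 to 241 reads per library. NAC 2 was the lowest and the groups overlapped, with a log2 fold change of -0.15 ± 0.0885 (SE, n = 3 each, limma adjusted p = 0.335). Its Control level lay at the 46.5th percentile of the tested genes, so the most abundant Hox gene by name was a gene of middling abundance in these cells. The C11-like row, which carries no Hox name, lay at the 68.7th percentile. When library totals replaced the authors' scaling, Hoxc10 was called lower in NAC (log2 fold change -0.30, limma adjusted p = 0.0454), a scaling that also moved the median of all tested genes from -0.01 to -0.16.

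Hoxd8, a paralogue of the trunk, followed with 3.93, 3.78 and 4.02 FPKM in Control and 4.16, 4.34 and 4.11 FPKM in NAC (chr3:61627383-61628628, plus strand). Every NAC value lay above every Control value, but by little. The log2 fold change was 0.08 ± 0.0682 (SE, n = 3 each, limma adjusted p = 0.484) and turned to -0.06 with library totals.

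Hoxd9, Hoxa11, Hoxc13 and Hoxc6 came next, and their Control ranges overlapped one another. Hoxd9, which is used in posterior trunk and limb, stood at 2.99, 3.62 and 2.42 FPKM in Control and 2.37, 2.86 and 2.29 FPKM in NAC. Hoxa11, a factor needed for the middle segment of the limb (forearm and shank), stood at 2.62, 3.09 and 3.11 FPKM in Control and 2.42, 3.59 and 3.45 FPKM in NAC in its row at chr4:82298152-82300503. Hoxc13, known for its role in hair and nail, stood at 2.87, 2.23 and 3.04 FPKM in Control and 2.16, 2.91 and 1.77 FPKM in NAC. In each of these 3 genes the groups overlapped. Hoxd9 lies at chr3:61620192-61622359 and Hoxc13 at chr7:144531814-144537966, both on the plus strand, and Hoxa11 on the minus strand. Their log2 fold changes were -0.19 for Hoxd9, 0.07 for Hoxa11 and -0.19 for Hoxc13, with limma adjusted p of 0.434, 0.793 and 0.499. The sign for Hoxa11 turned to -0.06 with library totals and to -0.01 without NAC 2.

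Hoxc6, a gene of the thoracic region in the embryo, stood at 2.94, 2.54 and 2.42 FPKM in Control and at 3.33, 3.99 and 3.27 FPKM in NAC (chr7:144623555-144625516, plus strand). Each NAC library exceeded each Control library, with 51 to 67 reads against 40 to 50. The log2 fold change was 0.32 ± 0.103 (SE, n = 3 each, 95% interval 0.07 to 0.56). It did not pass the threshold (limma adjusted p = 0.109). Hoxc6 kept its sign and stayed short of the threshold in the 15 alternative settings that gave it a value, from 0.18 with library totals to 0.42 with voom on reads.

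Hoxc4 and Hoxd4, paralogues of the neck and upper trunk, were the lowest of the 8 (chr7:144647587-144650129 and chr3:61634005-61651056, plus strand). Hoxc4 stood at 1.30, 1.25 and 1.88 FPKM in Control and 1.57, 1.67 and 1.5 FPKM in NAC (log2 fold change 0.07, limma adjusted p = 0.799). Hoxd4 stood at 1.54, 1.14 and 1.37 FPKM in Control and 1.37, 1.17 and 1.27 FPKM in NAC (log2 fold change -0.05, limma adjusted p = 0.855). The groups overlapped in both genes, and the signs were not stable: Hoxc4 turned to -0.04 with library totals and Hoxd4 to 0.01 without Control 1. The Hoxd4 row overlaps an antisense row and Mir10b, which lies on the strand of Hoxd4. Both of these rows had at most 1 read in any library, against 39 to 57 for Hoxd4. No source used here says how reads in such overlaps were assigned.

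Ordered by Control level, Hoxc10 stood clear of Hoxd8, and Hoxd8 of the group from Hoxd9 to Hoxc6. That group in turn stood clear of Hoxc4 and Hoxd4, whose ranges overlapped each other.

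Values close to the limit of 1 FPKM were of few reads. Just above it by Control mean but not in every library lay Hoxc12 with 0.689, 1.4 and 1.45 FPKM, Hoxd10 with 1.2, 0.739 and 1.34 FPKM and Hoxd11 with 1.11, 1.12 and 0.900 FPKM. Hoxc9 with 1.67, 0.944 and 1.49 FPKM missed it in Control 2 only. Just below lay Hoxa9 (mean 0.920 FPKM), Hoxc5 (0.622 FPKM) and Hoxa13 (0.359 FPKM), a factor of the hand and foot. Hoxd10 and Hoxd11 act in the same limb segments as their Hoxa and Hoxc paralogues. Hoxa9 ran from 0.674 to 1.34 FPKM in Control and from 0.451 to 0.875 FPKM in NAC, Hoxc5 from 0.546 to 0.770 and from 0.592 to 0.784 FPKM, and Hoxa13 from 0.25 to 0.474 and from 0.317 to 0.697 FPKM, so that the groups overlapped in each. In NAC, Hoxc12 was found at 0.961, 0.873 and 0.0942 FPKM, the last from 1 read, and Hoxc9 at 0.805, 1.53 and 0.434 FPKM. Hoxd10 in NAC ran from 0.923 to 1.19 FPKM and Hoxd11 from 0.823 to 1.05 FPKM, both overlapping their Control values.

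The other rows of Hoxc and Hoxd were lower. Hoxc8 averaged 0.307 ± 0.176 FPKM in Control and 0.249 ± 0.0735 FPKM in NAC (SD, n = 3 each), between neighbours on both sides that were higher. Hoxd3 ran from 0.155 to 0.402 FPKM in Control and from 0.204 to 0.314 FPKM in NAC. Hoxd13, the most distal limb gene of the cluster, ran from 0.117 to 0.137 FPKM in Control and from 0.0593 to 0.237 FPKM in NAC, on 2 to 8 reads. Hoxd1 was found with at most 1 read and Hoxd12 with at most 3.

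Hoxb was nearly unread. Its 10 rows together had 2 to 8 reads per library, 9 of them never exceeded 3 reads, and Hoxb1, Hoxb7 and Hoxb13 were listed at 0 throughout. The highest value was that of Hoxb9 in NAC 3, at 0.508 FPKM from 6 reads. A difference between the groups was not detectable at this depth. Snf8, Ube2z and Atp5g1, which lie within 200 kb outside Hoxb, averaged 41.8, 19.1 and 68.7 FPKM in Control. Other protein-coding genes of that stretch were nearly unread as well. Gip averaged 0.206 FPKM and Ttll6 0.00578 FPKM in Control, and Skap1 was listed at 0 in all 6 libraries.

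Hoxa levels carried a further limit, because the table holds this region more than once. Some Hoxa names or Hox-like rows of identical length stood on chromosome 4 and on an unplaced scaffold, where 13 of 14 rows were listed at 0. Of the 3 rows of 816 bases, Hoxa9 had 54 reads over the 6 libraries and the other two had 0. Of the 2 rows of 942 bases, Hoxa11 had 232 reads and its copy 0. The Hoxa6 row spans 8 other rows, and no source used here says how reads shared by such copies were counted. The levels of Hoxa5, Hoxa6, Hoxa7, Hoxa9, Hoxa11 and Hoxa13 are uncertain for that reason. Hoxa2 and Hoxa7 had at most 1 read in any library. Between Hoxa9 and Hoxa11 lay a row without a Hox name, Rn60_4_1469.2, described as Protein LOC100911668. The scaffold row named LOC100911668 is described as Hox-A10-like and was listed at 0. Rn60_4_1469.2 stood at 2.14, 1.55 and 0.986 FPKM in Control and 0.935, 1.37 and 0.984 FPKM in NAC. Its log2 fold change was -0.27 (limma adjusted p = 0.433).

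No Hox gene passed the threshold between NAC and Control. Only 10 of the 38 rows had the mean of 1 FPKM needed for the test, and 28 were not tested. By limma 0 of the 10 were called, against 8.8% of all tested genes (6.08% higher and 2.72% lower), and 1 of 10 had an unadjusted p under 0.05, against 26.3%. By voom on the recovered reads 0 were called as well, against 12.3%. The groups did not overlap in 2 of 10, Hoxc6 and Hoxd8, against 32.6%. In sign 4 were higher and 6 lower, with a median log2 fold change of -0.05 beside -0.01 over all tested genes. These shares are those of few genes with few reads.

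The intervals show what size of change in FPKM + 1 these libraries allow. Adding 1 understates changes of low genes, so the intervals do not bound the change of FPKM itself. Hoxc9, for example, averaged 1.37 FPKM in Control and 0.922 FPKM in NAC, for which the fold of FPKM + 1 was 0.797. The 95% intervals of the 10 fold changes of FPKM + 1 reached from 0.536 to 1.48, the lower end belonging to Hoxc9 and the upper to Hoxc6. For Hoxd8, the gene of the narrowest interval, it ran from -0.08 to 0.25 on the log2 scale. For Hoxc9 the log2 fold change was -0.33 with an interval from -0.90 to 0.25 (limma adjusted p = 0.439), and for Hoxd10 it was -0.05 and turned to 0.04 without Control 3.

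**Figure D2:**
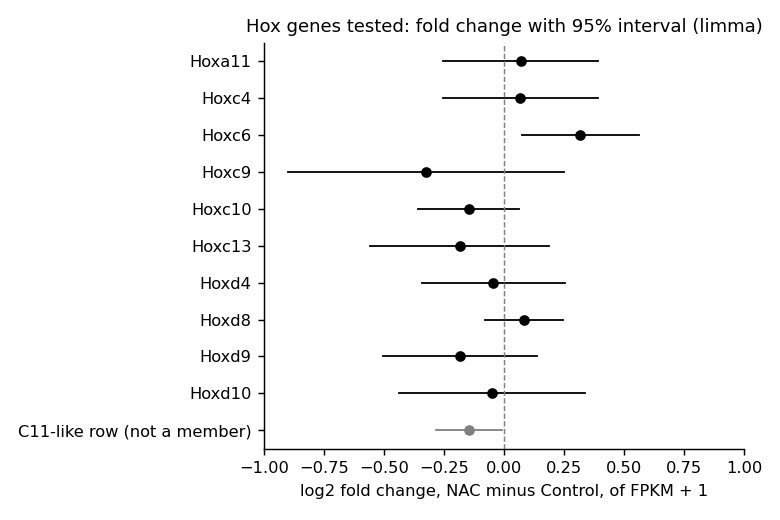
Log2 fold change (NAC minus Control, of FPKM + 1) with its 95% interval from limma for the 10 tested Hox genes and, in grey, for the C11-like row. The intervals of 9 Hox genes include 0, that of Hoxc6 runs from 0.07 to 0.56, and no Hox gene passed the adjusted threshold.

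Summed over clusters, Hoxc gave the most and Hoxb the least in both groups. Hoxc gave 19.1 ± 1.24 FPKM in Control and 17.8 ± 0.911 FPKM in NAC, and Hoxd 10.8 ± 0.390 and 10.4 ± 0.298 FPKM (SD, n = 3 each). Hoxa gave 4.88 ± 0.175 and 5.23 ± 1.46 FPKM, and Hoxb 0.382 ± 0.0288 and 0.390 ± 0.258 FPKM. In Control this was 52.3 to 55.9% of the FPKM of the 38 rows from Hoxc, 29.3 to 31.7% from Hoxd, 13.1 to 14.9% from Hoxa and 0.984 to 1.14% from Hoxb. These shares leave out rows without a Hox name. Among those is the C11-like row inside Hoxc, described below, at 18.6 FPKM in Control beside 19.1 FPKM for the whole of Hoxc by name. The groups overlapped in every cluster as deposited. All 38 rows together gave 35.2 ± 1.16 FPKM in Control and 33.8 ± 1.41 FPKM in NAC, but with library totals they gave 36.4 ± 1.62 and 31.0 ± 1.33 FPKM without overlap.

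Summed along the clusters the paralogues differed in direction. Groups 9 to 13, those of tail and limb, gave 23.6, 23.4 and 24.2 FPKM in Control and 20.3, 22.3 and 21.1 FPKM in NAC. Groups 4 to 8, those of the trunk, gave 11.3, 10.1 and 11.3 FPKM in Control and 11.4, 12.4 and 12.4 FPKM in NAC. Neither pair of ranges overlapped, with NAC lower in groups 9 to 13 and higher in groups 4 to 8. As deposited, neither separation held when 1 gene was left out. Without Hoxc10 the higher groups gave 15.0 ± 0.155 and 13.4 ± 1.81 FPKM, and without Hoxc6 the trunk groups gave 8.26 ± 0.651 and 8.53 ± 0.521 FPKM. Both then overlapped. Leaving out other single genes was not examined, and the trunk ranges lay close together, with at most 11.3 FPKM in Control and at least 11.4 FPKM in NAC. With library totals the trunk groups overlapped (11.3 ± 0.833 and 11.04 ± 0.534 FPKM) and groups 9 to 13 stayed lower in NAC (24.5 ± 0.699 and 19.4 ± 0.867 FPKM), there also without Hoxc10 (15.5 ± 0.341 and 12.3 ± 1.58 FPKM, without overlap). Groups 1 to 3, the head and neck end, gave 0.542 ± 0.198 FPKM in Control and 0.511 ± 0.218 FPKM in NAC. These sums describe the members and were not tested. They leave out rows without a Hox name, among them the C11-like row described next. That row averaged 18.6 FPKM in Control and 16.7 FPKM in NAC without overlap, and sums of groups 9 to 13 that include it were not examined.

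The most abundant row of any Hox cluster did not carry a Hox name. LOC100911859, described in the table as homeobox protein Hox-C11-like, lies between Hoxc12 and Hoxc10 (chr7:144565392-144567580, plus strand). It stood at 17.7, 19.2 and 18.9 FPKM in Control and 15.7, 17.1 and 17.4 FPKM in NAC, above every row named as a Hox gene in every library. All NAC values lay below all Control values, with a log2 fold change of -0.15 ± 0.058 (SE, n = 3 each). It was not called (limma adjusted p = 0.168). With library totals it was called lower (-0.31, limma adjusted p = 0.0114). Counted with Hoxc, it brought that cluster to 37.7 ± 1.18 FPKM in Control and 34.5 ± 1.26 FPKM in NAC, without overlap.

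Rows placed on the other strand by the table also lay in this stretch, although no source used here gives the strand setting of the counts. Of the 8 rows inside Hoxc that are not Hox by name 5 are on the minus strand, opposite to the Hox genes, and 6 of the 8 were tested. By limma 0 of these 6 were called (8.8% of all tested genes), 2 had an unadjusted p under 0.05 (26.3% of all), and 0 were called by voom (12.3% of all). Beside the C11-like row lay an unannotated minus-strand locus of 14.5 ± 1.65 FPKM in Control and 13.3 ± 1.58 FPKM in NAC (SD, n = 3 each). AABR07058934.1, a long noncoding RNA with a counted length of 134 bases between Hoxc12 and the C11-like row, stood at 6.50, 5.28 and 9.15 FPKM in Control and 4.94, 2.20 and 1.78 FPKM in NAC. The groups did not overlap, on 9 to 18 reads in Control and 3 to 9 in NAC, and the log2 fold change of -1.06 ± 0.308 (SE, n = 3 each) was not called (limma adjusted p = 0.0836). It was called without NAC 1 (-1.39, limma adjusted p = 0.0359) and with library totals (-1.19, limma adjusted p = 0.0264). Further unannotated minus-strand loci on either side of these averaged 1.55 and 1.82 FPKM in Control and 0.989 and 2.01 FPKM in NAC, and neither was called. By their deposited coordinates, none of these minus-strand rows overlaps the C11-like row or a Hox gene by name, but some lie close. The C11-like row ends at base 144567580 and the locus beside it starts at 144567616. A further locus ends at 144577354 and Hoxc10 starts at 144577465. Without a stated strand setting, such loci and unannotated ends of the neighbouring transcripts cannot be told apart. The miRNA rows inside the 4 clusters had at most 2 reads.

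**Figure D3:**
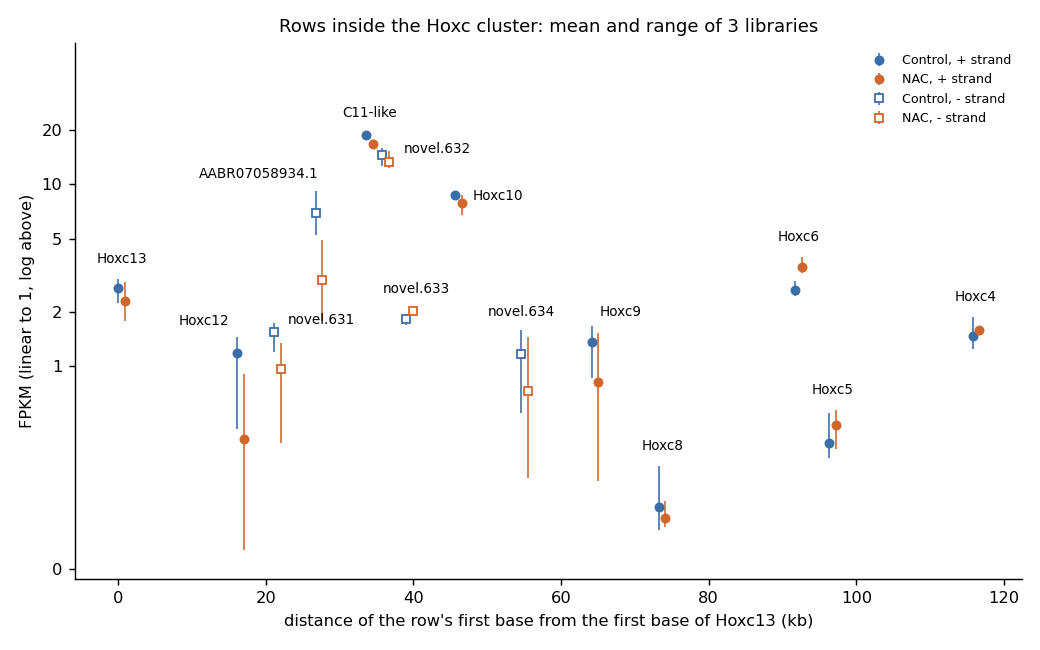
Mean FPKM, with the range of 3 libraries, of the rows inside the Hoxc cluster against the distance of each row's first base from that of Hoxc13, in kb, for Control (blue) and NAC (orange); filled points are on the strand of the Hox genes and open squares on the other, and the axis is linear to 1 FPKM and logarithmic above. The highest rows are the C11-like row (18.6 FPKM in Control), the minus-strand locus beside it and Hoxc10, and levels fall to 0.307 FPKM at Hoxc8 before Hoxc6.

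TALE homeodomain proteins (Pbx, Meis and Pknox) bind DNA together with Hox proteins, and they were more abundant than most Hox genes. Of 9 genes 8 were tested, 0 were called, 0 had an unadjusted p under 0.05 and 0 were called by voom, against 8.8%, 26.3% and 12.3% of all tested genes, with a median log2 fold change of 0.05. Pbx2 averaged 15.7 FPKM in Control and 16.2 FPKM in NAC (limma adjusted p = 0.698). Its sign turned with library totals, to -0.12.

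Among limb factors the pair known from hindlimb was present and the one known from forelimb was nearly unread. Pitx1, which sets hindlimb type, stood at 10.8, 9.88 and 10.9 FPKM in Control and 10.9, 10.3 and 12.1 FPKM in NAC. Tbx4, a T-box factor of the hindlimb bud, stood at 12.1, 9.34 and 10.8 FPKM in Control and 11.9, 11.1 and 11.2 FPKM in NAC. Tbx5, its forelimb counterpart, was listed at 0 in 3 of 6 libraries and reached 0.0897 FPKM at most. Pitx1 and Tbx4 overlapped between the groups (log2 fold changes 0.07 and 0.09, limma adjusted p = 0.606 and 0.590), and their signs turned to -0.09 and -0.07 with library totals, and that of Tbx4 to -0.002 without Control 2.

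Of 32 limb-type and limb-patterning factors 20 were tested, 2 rose, 0 fell and 18 did not pass (against 6.08% of all tested genes higher and 2.72% lower), with a median log2 fold change of 0.05. Prrx2, a homeobox gene of limb mesenchyme, rose from 143 ± 11.8 to 177 ± 5.07 FPKM (SD, n = 3 each, limma adjusted p = 0.0310). En1, which marks ventral limb ectoderm and some skin fibroblasts, rose from 92.6 ± 3.21 to 112 ± 7.16 FPKM (SD, n = 3 each, limma adjusted p = 0.0333). Prrx1, the partner of Prrx2 in limb mesenchyme, averaged 893 and 913 FPKM and was not called. Neither call was firm: that of Prrx2 was lost when Control 1, Control 3 or any 1 NAC library was left out (limma adjusted p 0.0791 to 0.107), and that of En1 when any 1 Control library, NAC 1 or NAC 2 was left out (0.0532 to 0.108). With the replicate number as a block Prrx2 was lost as well (limma adjusted p = 0.0521), and with library totals both were lost (0.117 and 0.202). Of the 8 tendon markers 7 were tested, 2 rose, 0 fell and 5 did not pass (against 6.08% of all tested genes higher and 2.72% lower), with a median log2 fold change of 0.32. Col1a1, the main collagen of tendon, rose from 2731 ± 124 to 5453 ± 253 FPKM and Dcn, a proteoglycan of its fibrils, from 4489 ± 54.6 to 5620 ± 164 FPKM (SD, n = 3 each, limma adjusted p = 0.000406 and 0.00649). The log2 fold change of Col1a1 was 1.00, and 0.52 with quantile normalization. The Dcn call was lost with no filter (limma adjusted p = 0.156) and with quantile normalization (0.553), and its log2 fold change of 0.32 became 0.15 with library totals. Tnmd averaged 2.55 FPKM in NAC, above Control without overlap, and was not called (limma adjusted p = 0.0909), and Thbs4 and Kera were also higher without overlap. The groups did not overlap in 32.6% of all tested genes, in either direction. Scx and Mkx averaged 11.6 and 3.90 FPKM in NAC, overlapping Control (limma adjusted p = 0.519 and 0.192).

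**Figure D4:**
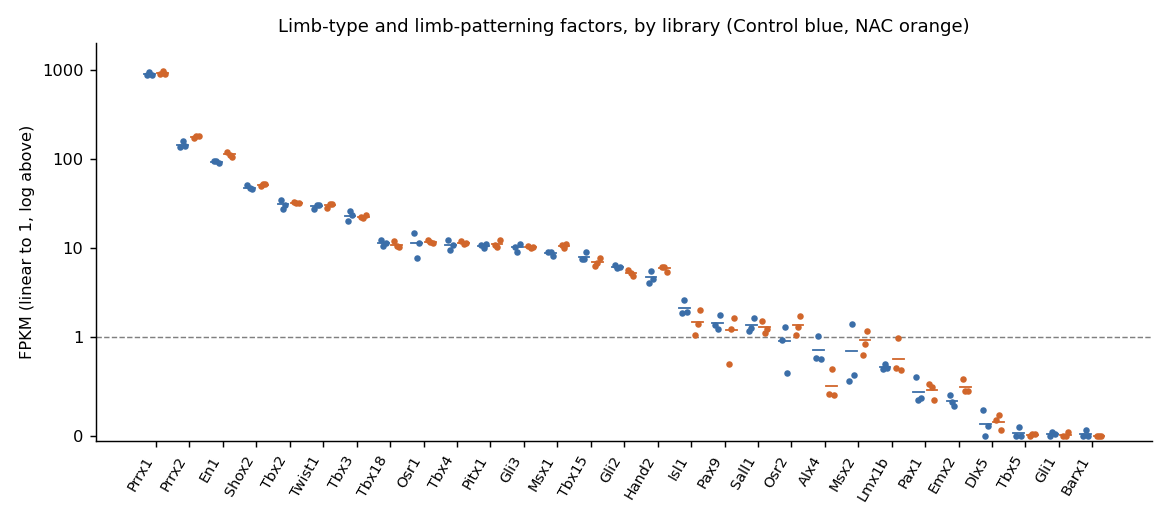
FPKM by library of the limb-type and limb-patterning factors above 0 in Control, from the highest to the lowest, with group means as bars (Control blue, NAC orange), a dashed line at 1 FPKM and an axis linear to 1 FPKM and logarithmic above. Prrx1 leads at about 893 FPKM in Control, Tbx4 and Pitx1 lie near 10.8 and 10.54 FPKM, and Tbx5 lies near the bottom at 0.0299 FPKM.

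Upstream of Hox genes in the embryo stand retinoic acid, FGF, WNT and GDF11 signals and the Cdx factors. Of 19 retinoic acid genes 12 were tested, 2 rose, 0 fell and 10 did not pass (against 6.08% of all tested genes higher and 2.72% lower), with a median log2 fold change of 0.19. Crabp1, a cytosolic binder of retinoic acid, stood at 68.1, 55.3 and 74.6 FPKM in Control and 104, 100.4 and 110 FPKM in NAC, a rise of 0.67 ± 0.106 on the log2 scale (SE, n = 3 each, limma adjusted p = 0.0142). Cyp26b1, which degrades retinoic acid, stood at 1.82, 2.61 and 2.44 FPKM in Control and 3.40, 4.72 and 4.4 FPKM in NAC, a rise of 0.65 ± 0.142 (SE, n = 3 each, limma adjusted p = 0.0390). The groups did not overlap in either gene. The Crabp1 call was lost when any 1 NAC library was left out (limma adjusted p 0.0527 to 0.0596), and that of Cyp26b1 when Control 1, Control 3 or any 1 NAC library was left out (0.0527 to 0.125).

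Of 21 genes of FGF, WNT and GDF11 signalling 16 were tested, 1 rose, 0 fell and 15 did not pass, beside the same 6.08% and 2.72% of all tested genes, with a median of 0.08. Wnt5a, a WNT ligand of the growing limb, rose from 20.2 ± 1.80 to 26.8 ± 1.15 FPKM (SD, n = 3 each, limma adjusted p = 0.0232), a call lost when any 1 NAC library was left out (0.0610 to 0.0907) and with library totals (0.0563). Without Control 2 the calls in this list numbered 3. Of 10 ParaHox and flanking homeobox genes 0 had enough expression for the test and 7 were listed at 0 in all 6 libraries. The name Evx1 matched no row, but LOC100911889, described in the table as an even-skipped homolog 1-like gene and placed beside Hoxa, was listed at 0 in all 6 as well. Cdx1, an activator of Hox genes, averaged 0.680 FPKM in Control and 0.523 FPKM in NAC, and Gbx2 0.120 and 0.0721 FPKM.

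Polycomb and Trithorax proteins keep Hox genes off and on, respectively. Of 30 Polycomb genes 28 were tested, 0 rose, 1 fell and 27 did not pass (against 6.08% of all tested genes higher and 2.72% lower), with a median log2 fold change of -0.02. Ezh1, a methyltransferase of histone H3 lysine 27, fell from 17.6 ± 0.938 to 14.8 ± 0.411 FPKM (SD, n = 3 each, limma adjusted p = 0.0459), while its paralogue Ezh2 averaged 5.14 and 6.09 FPKM and was not called. The Trithorax list of 18 genes also holds demethylases and other chromatin genes, among them Ctcf, Rad21 and Dot1l. Of the 18 genes 16 were tested, 0 rose, 1 fell and 15 did not pass, beside the same 6.08% and 2.72%, with a median of -0.03. Ash2l, a core subunit of the complexes that methylate histone H3 lysine 4, fell from 22.8 ± 1.30 to 18.3 ± 0.216 FPKM (SD, n = 3 each, limma adjusted p = 0.0187). The Ezh1 call was lost when Control 1, Control 3 or any 1 NAC library was left out (limma adjusted p 0.114 to 0.129) and with the replicate block (0.0985), and that of Ash2l when Control 1 or any 1 NAC library was left out (0.0520 to 0.0712).

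**Figure D5:**
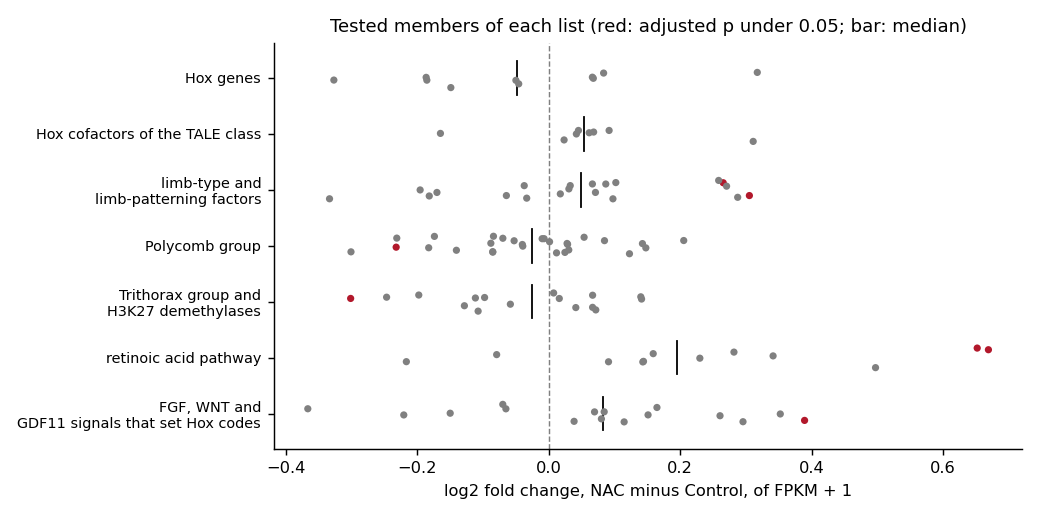
Log2 fold change (NAC minus Control, of FPKM + 1) of each tested member of the Hox genes and of 6 related lists, with red points for adjusted p under 0.05 and a bar at each median. The Hox genes have no red point and a median of -0.05, and the 2 red points of the retinoic acid list are Crabp1 and Cyp26b1.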

How the data were processed

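The authors deposited 1 table of FPKM values per gene and library, per the file headers with gene lengths and rat Ensembl identifiers. No source used here names the aligner, the counting or the strand setting. Mouse builds, GRCm38 and mm10, are named per the submitters' processing notes, so the build of the coordinates is not known. The 3 columns headed N were taken as Control by elimination. FPKM times gene length came out as whole multiples of 1 step per library (100% of values, tolerance 0.01), which gave reads. 3 reads were taken as the floor.

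The comparison used limma 3.58.1 (R 4.3.3; lmFit with a group term alone, then a two-sided moderated test from eBayes with a trend) on log2(FPKM + 1), which understates changes of low genes, for genes with a mean of at least 1 FPKM, with Benjamini-Hochberg adjustment over all 12733. The fit was tested on simulated data. Tables and figures were made in Python 3.11.15 (numpy 2.4.6, pandas 2.3.3, matplotlib 3.10.9). The members and lists were chosen with earlier results of these data known. Of 192 list and marker entries 188 were matched by name.

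Named genes were the Hox genes of at least 1 FPKM in every Control library, any Hox gene called, the 3 nearest above and below by Control mean, Pitx1, Tbx4, Tbx5, Scx, Mkx, up to 4 called members per list (or the 2 most abundant), and other rows inside the clusters of at least 1 FPKM in all libraries of a group. Other genes named (Hoxc9, Hoxc8, Hoxd3, Hoxd13 and other low Hox rows, Rn60_4_1469.2, the cell type markers, Smarcb1, Ezh2, Prrx1 and the flanking genes) were chosen after their values were seen. 1 gene that the rule named is not reported here. Alternatives were another pseudocount, other filters, 3 other scalings, eBayes without trend or robust, voom on the recovered reads, the replicate number as a block and leaving out each library. The sums without Hoxc6 or Hoxc10 and with library totals were chosen after seeing the data. Replicates all differed by more than sampling noise and were each counted once.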

Additional observations from a re-analysis of the deposited data

How the results depend on the processing

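Of 30 single genes and rows followed through 15 or 16 alternatives each, 9 kept direction and side of the threshold in all. Of 9 called list and marker genes 8, all but Col1a1, lost their call under at least 1 alternative and 0 turned in sign. No Hox gene was called higher under any alternative, and 1 was called lower with library totals only, Hoxc10. That scaling left 1 of 10 tested Hox genes higher and 9 lower (median -0.14) and turned the calls over all genes from 774 higher and 346 lower to 467 and 3722 (quantile normalization 567 and 408). With it signs turned for Hoxa11 (-0.0624), Hoxc4 (-0.0388), Hoxd8 (-0.0563), Pitx1 (-0.0930), Tbx4 (-0.0732), Pbx2 (-0.119) and an unannotated minus-strand locus near Hoxc10 (-0.0167), and Mkx became called (adjusted p = 0.0481). With a library left out, signs turned for Hoxa11 (-0.0102 to 0.202, below 0 without NAC 2), Hoxd4 (-0.111 to 0.0124, above 0 without Control 1), Hoxd10 (-0.179 to 0.0366, above 0 without Control 3) and Tbx4 (-0.00213 to 0.169, below 0 without Control 2). The 8 Hox genes at 1 FPKM became 12 by Control mean, 14 at 0.5 FPKM, 18 above 3 reads, and 9 to 10 with a Control library left out. Calls over all genes, higher and lower, numbered 549 and 207 of 19944 with no filter and 780 and 408 of 8783 at a mean of 5 FPKM. The other settings tested 12733 genes each. There the calls numbered 1035 and 529 with voom, 549 and 206 without trend, and 264 to 859 and 51 to 347 with a library left out. The list counts that follow stand beside these. Calls in the limb list numbered 0 with no filter, 1 with quantile normalization, 0 without trend and 0 to 2 with a library left out. Polycomb calls numbered 0 with no filter, 3 at a mean of 5 FPKM, 0 with quantile normalization, 8 with library totals, 0 without trend, 2 with voom and 0 to 1 with a library left out. Trithorax calls numbered 7 with library totals and 0 to 1 with a library left out. Retinoic acid calls numbered 1 with no filter, 1 at a mean of 5 FPKM, 4 with library totals, 1 without trend and 0 to 2 with a library left out. FGF, WNT and GDF11 calls numbered 2 at a mean of 5 FPKM, 2 with quantile normalization, 3 with library totals, 3 with voom and 0 to 3 with a library left out. The causes of these shifts were not tested.

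Same-numbered libraries did not deviate together (r = 0.0627, 0.0589 and -0.0502), so numbers were not taken as pairs. With the replicate number as a block 0 Hox genes were called, the limb list held 1 call and Polycomb 0, and calls over all genes fell to 466 higher and 110 lower. Depth limits many Hox rows, since 14 of 38 had at most 3 reads in all 6 libraries.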

Other observations

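Several homeobox genes without a Hox name were more abundant than any Hox gene. Of the 189 rows that the deposited annotation places among homeobox factors or the Hox9 activation family, 37 were tested, of which 10 were Hox genes by name. The 27 others were among 151 rows without a Hox name, with 2 higher in NAC (Prrx2 and En1) and 0 lower, against 8.8% of all tested genes called. Ranked by Control mean, Prrx1 was first (893 FPKM), followed by Prrx2, En1 and Shox2, the last a factor of the upper limb segment at 47.4 FPKM. Hoxc10 ranked 11 and Hoxd8 ranked 20 among the 189.

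The mesodermal homeobox pair Meox1 and Meox2, chosen after their values were seen, lay on opposite sides. Meox2 averaged 17.2 ± 3.03 FPKM in Control and 12.9 ± 0.351 FPKM in NAC (SD, n = 3 each, limma adjusted p = 0.105). Meox1 averaged 6.98 ± 0.459 and 8.63 ± 0.721 FPKM (limma adjusted p = 0.0829). The groups did not overlap in either gene, neither passed the threshold, and the difference between them was not tested.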
